A study of Mus musculus with 18 samples.

Results

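The Ly6 family of surface proteins was examined in CD3+ tumor-infiltrating lymphocytes (TILs) from mouse melanomas. The members were taken by gene symbol, namely Ly6a, Ly6c1, Ly6c2, Ly6e, Ly6d, Ly6g, Ly6i and Ly6k, 8 of the 37236 genes in the expression table. Of the 8 members, 7 had a mean of at least 10 normalised reads over all samples and were tested among 11992 such genes, and Ly6g did not. All mice were on the C57BL/6 strain and received 500000 B16-OVA cells, a mouse melanoma line carrying the model antigen ovalbumin, under the skin. Wild-type (Nr2f6+/+) mice and mice lacking the nuclear receptor NR2F6 in the whole body (Nr2f6-/-), made by back-crossing the deletion, were given 0.5 mg of an antibody that blocks PD-L1 (αPD-L1) or of its control antibody IgG2b from d3, and tumors were taken at d14. Each genotype gave 3 samples with IgG2b and 6 with αPD-L1, 18 in all. The labelled αPD-L1 groups are larger than those in the legend of the study's own expression plot, and every labelled sample was used. T cells were enriched with CD4 and CD8 beads, combined and then sorted by CD3, and a value therefore averages over T cells of several kinds. The labels present the samples as separate replicates without naming the animals, and p-values measure the spread between these samples.

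Ly6 proteins are small, cysteine-rich proteins with the finger-like loops of the LU domain, and most are held on the outer cell membrane by a glycosylphosphatidylinositol (GPI) anchor. On mouse lymphocytes and myeloid cells they serve chiefly as antibody markers of lineage and activation. Ly6a, known as Sca-1, is induced by interferon and marks activated and memory T cells as well as stem cells, while Ly6c1 and Ly6c2 encode the closely related Ly6C antigens of effector and memory CD8 T cells and of inflammatory monocytes.

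The 8 genes lie within 397 kb of chromosome 15 (GENCODE M21, GRCm38), from Ly6d at 74762056 to the end of Ly6g at 75159126, with 6 on the minus strand and 2, Ly6e and Ly6g, on the plus strand. In the order of the chromosome, Ly6d is followed by Ly6k, Ly6e, Ly6i, Ly6a, Ly6c1, Ly6c2 and Ly6g. Ly6a spans chr15:74994877-74998031, Ly6c1 chr15:75044018-75048830, Ly6c2 chr15:75108158-75111970 and Ly6e chr15:74955051-74959905. The reference transcripts fall into a close and a distant set. Ly6c1 and Ly6c2 were identical at 97.6% of aligned bases, and at 97.95% within the last 300 bases, where the libraries take their reads, with a shared run of 124 bases in that stretch. Ly6a was identical to Ly6c1, Ly6c2, Ly6g and Ly6i at 79.4% to 84.7% of bases, whereas Ly6e, Ly6d and Ly6k matched other members at 51.8% to 55.1%, and none of their 22-base stretches, the shortest read length kept, was shared with another member. Since only the primary alignment of a read with several positions was counted, reads of Ly6c1 and Ly6c2 are uncertain between these 2 genes. Shorter shared runs joined Ly6a to Ly6c1 (89 bases), Ly6i (80) and Ly6c2 (52), and Ly6g to Ly6c2 (42). These also exceed 22 bases, so some reads given to Ly6g or Ly6i may belong to Ly6a or Ly6c2. Ly6k overlaps an annotated antisense gene, Gm17189, which had at most 0.821 normalised reads in a sample, and the strand setting of the counting is not given in the sources used here.

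Promoter sequences (250 bases before to 50 after a start, RefSeq, GRCm38.p6) were at hand for 3 members, Ly6c1, Ly6c2 and Ly6g, and are shown because NR2F6 belongs to the receptors that bind AGGTCA elements and because Ly6c2 differed between genotypes, as given further on. Capitals mark TATAAA and AGGTCA, searched on both strands. TATAAA stood in 13.6% and AGGTCA in 16.3% of 32851 promoters of this length. The table gave 2 windows for each of the 3 genes, from different starts, and 1 of each is shown. The windows shown are chr15:75048788-75049087 (minus strand), chr15:75111922-75112221 (minus strand) and chr15:75155011-75155310 (plus strand), each written 5′ to 3′ along the gene.
Ly6c1: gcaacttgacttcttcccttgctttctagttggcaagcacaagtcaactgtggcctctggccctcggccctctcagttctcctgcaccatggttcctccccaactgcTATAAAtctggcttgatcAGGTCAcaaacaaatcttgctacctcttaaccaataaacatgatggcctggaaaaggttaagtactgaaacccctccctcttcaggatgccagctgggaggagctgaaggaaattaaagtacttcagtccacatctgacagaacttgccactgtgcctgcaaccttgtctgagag
Ly6c2: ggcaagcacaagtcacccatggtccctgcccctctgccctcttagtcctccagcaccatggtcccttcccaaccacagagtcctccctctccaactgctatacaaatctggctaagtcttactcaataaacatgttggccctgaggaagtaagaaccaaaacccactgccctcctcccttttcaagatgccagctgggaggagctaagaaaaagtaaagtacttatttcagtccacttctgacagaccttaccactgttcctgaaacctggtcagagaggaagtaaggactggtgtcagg
Ly6g: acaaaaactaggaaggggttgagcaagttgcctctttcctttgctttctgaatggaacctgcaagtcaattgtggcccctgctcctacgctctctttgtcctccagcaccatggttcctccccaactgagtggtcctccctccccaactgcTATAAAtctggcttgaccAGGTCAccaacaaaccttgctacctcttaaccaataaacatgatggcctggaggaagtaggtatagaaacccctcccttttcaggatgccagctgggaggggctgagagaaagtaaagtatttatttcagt
The Ly6c1 window held TATAAA with its first base at -143 and AGGTCA at -125 from the start, and the Ly6g window held them at -99 and -81. The Ly6c1 window not shown (chr15:75048614-75048913) held neither, the Ly6g window not shown held both, and neither Ly6c2 window held either, so the contrast of Ly6c1 with Ly6c2 depends on the start chosen. The Ly6c2 window was identical to that of Ly6c1 at 74.3% of 288 aligned bases and held neither run of letters. GGAAA, the core bound by NFAT and present in 61.3% of promoters, TTCNNNGAA (8.30%), the interferon-stimulated response element core (3.44%) and GATAA (25.4%) were also absent from it, which says only that these letters are not in this window.

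Sequencing gave 12473391 to 18609482 reads on genes per sample (median 16554699), and 3 reads, taken as the floor, equalled 2.46 to 3.64 normalised reads. Nr2f6, the deleted gene, had between 20.2 and 200.8 normalised reads in the 9 Nr2f6+/+ samples and 0 reads in each of the 9 Nr2f6-/- samples. T cell markers were abundant, the 10 genes of that list summing to between 56511 and 96866 normalised reads per sample. Macrophage and monocyte markers (14 genes, including Lyz2 and C1qb) were present too and differed with the treatment. In wild type they summed to 16369 to 20855 with IgG2b and 1677 to 6815 with αPD-L1, and in Nr2f6-/- samples to 9860 to 13368 and 929 to 2626. Melanocyte and B16 markers summed to 799 to 7835 and B cell markers to 0 to 235. The library numbers of the labels form a first set (28 to 39), with 3 samples of each group, and a second set (43 to 48), with αPD-L1 samples only.

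Nearly all of the family's reads came from 3 members. Ly6a, Ly6c2 and Ly6e averaged 24248, 10790 and 15720 normalised reads over the 18 samples and stood among the most read 200 genes tested, at ranks 71, 198 and 120 of 11992. The other members together gave only 0.179% to 1.24% of the family's reads in any sample, with means between 2.52 (Ly6g) and 73.3 (Ly6k). The family as a whole took 0.235% to 0.430% of a library. Within groups the SD on the log2 scale was 0.27 for Ly6a, 0.32 for Ly6c2 and 0.24 for Ly6e, against 2.15 to 3.29 for Ly6c1, Ly6d, Ly6i and Ly6k.

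Ly6c2, the Ly6C gene to which most Ly6C reads were assigned, was higher in Nr2f6-/- than in Nr2f6+/+ TILs under PD-L1 blockade. The 6 Nr2f6+/+ αPD-L1 samples ran from 4235 through a median of 7434 to 10209 normalised reads, and the 6 Nr2f6-/- αPD-L1 samples from 11798 through 13849 to 18198. The lowest Nr2f6-/- sample stood above the highest Nr2f6+/+ sample, so the groups did not overlap. The means were 7221 ± 2030 and 14556 ± 2510 (SD, n = 6 each), a ratio of 2.02, and the log2 fold change was 1.05 (SE 0.17, 95% interval 0.70 to 1.39, adjusted p = 0.00218 by limma). By p, Ly6c2 ranked 6 of 11992 genes in this comparison. It was 1 of 7 members tested that passed an adjusted p of 0.05, where 0.175% of all genes tested passed (0.0917% were called higher), and 1 of 8 members whose groups did not overlap, as for 0.592% of genes tested. At an unadjusted p under 0.05 it was also 1 of 7, against 9.73% of genes. The call of Ly6c2 was lost when the 12 αPD-L1 samples were fitted alone (adjusted p = 0.0557).

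The Ly6c2 values were also compared within each set of libraries. In the first set the 3 Nr2f6+/+ αPD-L1 samples held 4235, 7761 and 7107 normalised reads and the 3 Nr2f6-/- samples 16990, 14036 and 11798. In the second set the values were 8096, 5919 and 10209 against 13663, 12650 and 18198. As the pooled groups did not overlap, neither set could overlap between genotypes, and this adds no evidence. The log2 fold change was 1.20 within the first set alone (adjusted p = 0.0329) and 0.89 within the second (adjusted p = 0.695), where no gene of the table passed the threshold. Ly6c1 reads made up at most 2.41% of the Ly6c1 and Ly6c2 reads of a sample. Adding both genes left the groups apart, at 4339 to 10303 against 11864 to 18213.

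**Figure D1:**
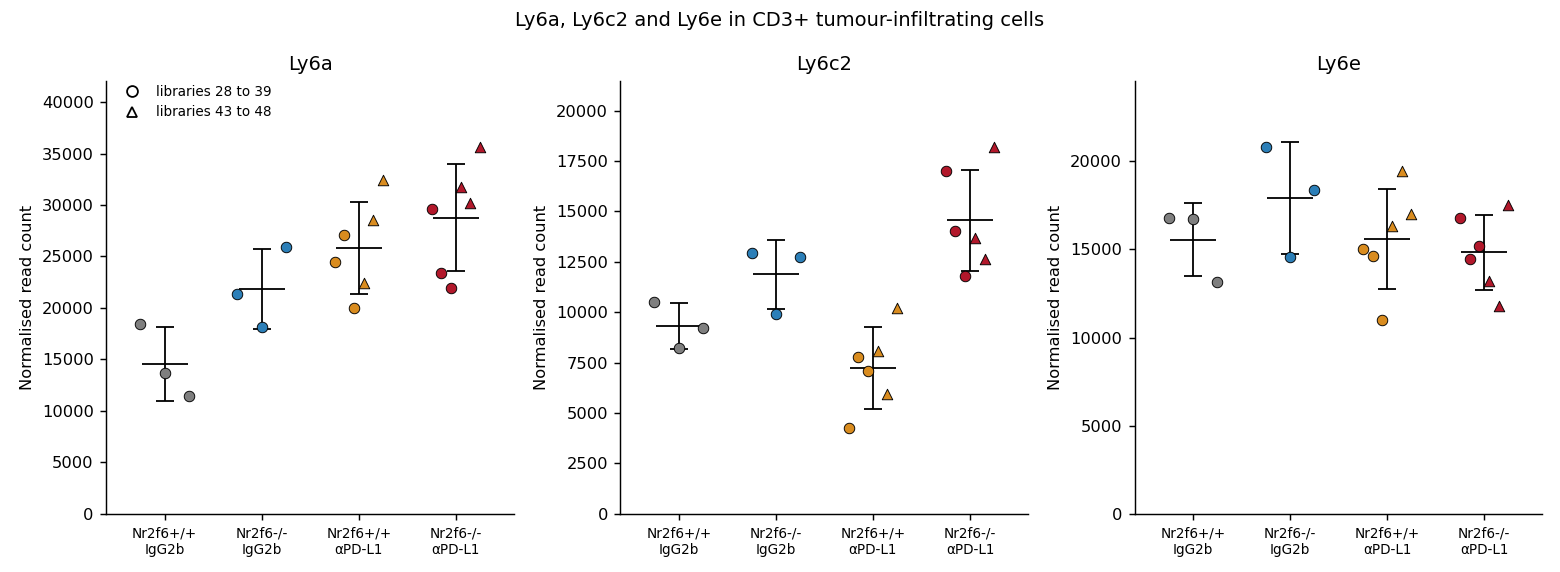
Normalised read counts (y axes, from 0) of Ly6a, Ly6c2 and Ly6e in each sample by group, with circles for libraries 28 to 39, triangles for libraries 43 to 48, and bars for the mean ± SD (n = 3, 3, 6 and 6). Ly6c2 of the Nr2f6-/- αPD-L1 samples (11798 to 18198) lies above every Nr2f6+/+ αPD-L1 sample (4235 to 10209), Ly6a has its lowest mean in Nr2f6+/+ IgG2b (11414 to 18467), and the groups overlap for Ly6e.

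Under the control antibody, Ly6c2 differed less between the genotypes. The Nr2f6+/+ IgG2b samples held 10488, 8232 and 9211 normalised reads and the Nr2f6-/- IgG2b samples 12951, 9926 and 12756. One Nr2f6-/- sample lay below the highest Nr2f6+/+ sample, and the groups overlapped. The log2 fold change was 0.35 (SE 0.24, 95% interval -0.15 to 0.84, adjusted p = 0.989). No gene passed in this comparison by limma or edgeR, while 1 of 7 members (Ly6a) and 641 genes (5.35%) had an unadjusted p under 0.05 and DESeq2 called 88.

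For PD-L1 blockade itself, the Ly6c2 estimates had opposite signs in the genotypes and neither passed the threshold. Its log2 fold change against IgG2b was -0.41 in Nr2f6+/+ TILs (SE 0.21, 95% interval -0.84 to 0.02, adjusted p = 0.711) and 0.29 in Nr2f6-/- TILs (SE 0.21, 95% interval -0.14 to 0.71, adjusted p = 0.718). The difference between these 2 changes was 0.70 (SE 0.30, 95% interval 0.09 to 1.30), with an unadjusted p of 0.0250 by limma and an adjusted p of 0.974. No gene passed for this difference by limma or edgeR, where 1 of 7 members (Ly6c2) and 4.97% of genes had an unadjusted p under 0.05 and DESeq2 called 76. Nr2f6-/- αPD-L1 samples stood at 1.56 times the mean of Nr2f6+/+ IgG2b samples without overlap, with a log2 fold change of 0.63 (SE 0.21, adjusted p = 0.203).

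Ratios within a library do not depend on the scaling between libraries. For every 100 Ly6a reads there were 65.9 ± 12.9 Ly6c2 reads in Nr2f6+/+ IgG2b (SD, n = 3), 54.8 ± 5.72 in Nr2f6-/- IgG2b (n = 3), 28.3 ± 7.74 in Nr2f6+/+ αPD-L1 (n = 6) and 51.2 ± 7.40 in Nr2f6-/- αPD-L1 samples (n = 6). The Nr2f6+/+ αPD-L1 samples (17.3 to 36.1) lay below every sample of the other groups, whose lowest value was 41.9. Both genes enter this ratio. With blockade in Nr2f6+/+ samples the mean of Ly6a was 1.78 times that with IgG2b, without overlap. The mean of Ly6c2 was 0.78 times that with IgG2b, with overlap. For every 100 Ly6e reads there were 28.2 to 64.6 Ly6c2 reads in Nr2f6+/+ αPD-L1 and 77.6 to 107 in Nr2f6-/- αPD-L1 samples. These Nr2f6-/- αPD-L1 values were above those of all other samples, the highest of which was 70.0.

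Set against Cd8a, the CD8 coreceptor of cytotoxic T cells, the genotypes separated in the first set of libraries and not in the second. Cd8a was chosen after its values were seen. There were 84.0 ± 36.1 Ly6c2 reads per 100 Cd8a reads in Nr2f6+/+ αPD-L1 (47.8 to 142, n = 6) and 114 ± 30.4 in Nr2f6-/- αPD-L1 samples (73.9 to 161, n = 6), and these ranges overlapped. In the first set the ratio was 47.8 to 79.2 in the 3 Nr2f6+/+ and 87.9 to 124 in the 3 Nr2f6-/- samples, without overlap, and in the second set it was 72.1 to 142 and 73.9 to 161. Cd8a itself was at 5361 to 13579 normalised reads in Nr2f6+/+ αPD-L1 and 11329 to 17120 in Nr2f6-/- αPD-L1 samples, with a log2 fold change of 0.54 (SE 0.18, adjusted p = 0.278). Cd8b1, its partner chain, had a log2 fold change of 0.67 (SE 0.18, adjusted p = 0.121) and Cd4 one of -0.12 (SE 0.29, adjusted p = 0.924). Relative to Cd8b1 reads, the genotypes overlapped in the first set. Nr2f6+/+ αPD-L1 replicate 2 had 7612 Ly6c2 and 15237 Cd8b1 reads, and Nr2f6-/- αPD-L1 replicate 3 had 9711 and 21333. In pooled RNA, a change in the share of cells with a transcript and a change of its amount per cell cannot be told apart, and the part of CD8 T cell share in the Ly6c2 difference was not tested. The 14 macrophage and monocyte markers summed to 1677 to 6815 in Nr2f6+/+ and 929 to 2626 in Nr2f6-/- αPD-L1 samples. Of them, 3 were higher and 11 lower in Nr2f6-/- αPD-L1 samples, and none passed the test. Of the lower ones, 4 had an unadjusted p under 0.05 by limma. A sum of markers does not bound the Ly6c2 reads of such cells, and their part in the Ly6c2 difference was not tested. Of 7 markers of plasmacytoid dendritic cells, which also carry Ly6C, 2 were higher and 5 lower in Nr2f6-/- αPD-L1 samples, and none passed. One of the 2 was Runx2, with means of 1653 and 2408 normalised reads, and the other 6 markers summed to 386 to 1058 in Nr2f6+/+ and 108 to 648 in Nr2f6-/- αPD-L1 samples. Over the same samples, 9 of 10 T cell markers were higher in Nr2f6-/- (sums of 60954 to 87046 and 80560 to 96866, median log2 fold change 0.32) and all 7 tested melanocyte and B16 markers were lower (sums of 2077 to 7835 and 799 to 4489, median -1.44). None of them passed, 3 of each list had an unadjusted p under 0.05 by limma, and their part in the Ly6c2 difference was not tested.

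**Figure D2:**
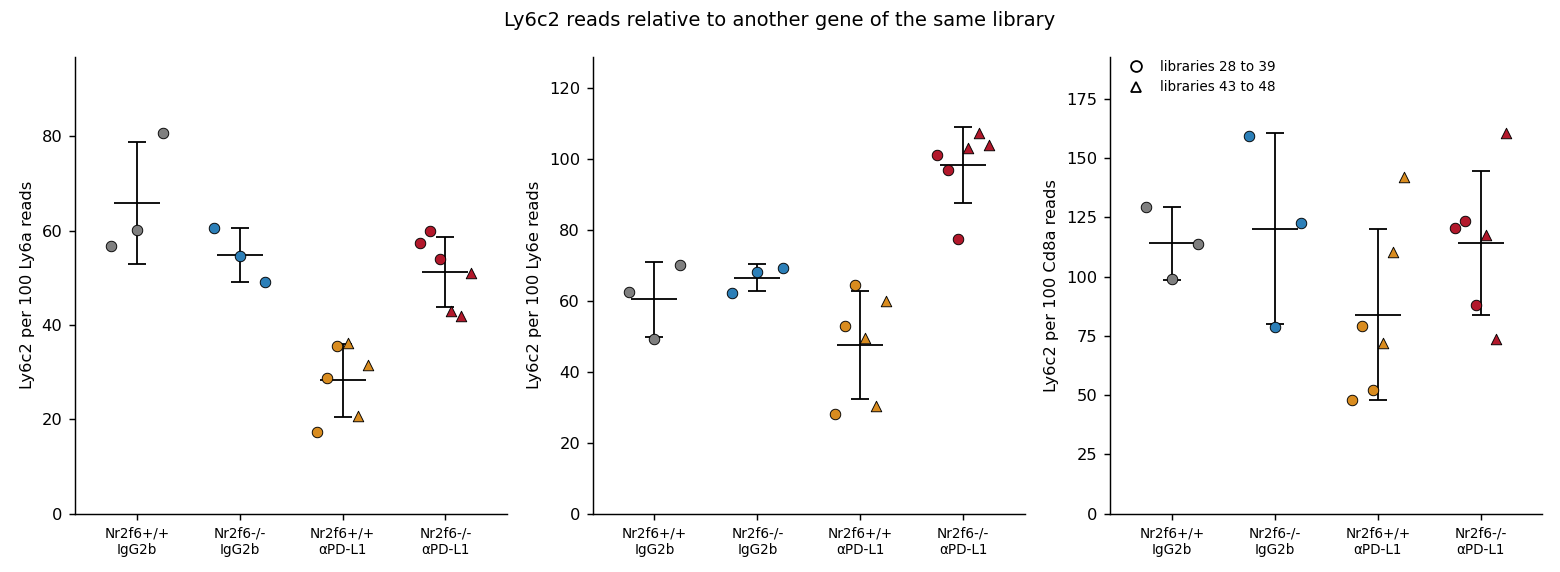
Ly6c2 reads per 100 reads of Ly6a, Ly6e or Cd8a of the same library (y axes, from 0) by group, with circles and triangles for the first and second set of libraries and bars for the mean ± SD. Relative to Ly6a, Nr2f6+/+ αPD-L1 samples (17.3 to 36.1) lie below all others. Relative to Ly6e, Nr2f6-/- αPD-L1 samples (77.6 to 107) lie above all others, and relative to Cd8a the αPD-L1 groups overlap over all samples and in the second set (72.1 to 142 and 73.9 to 161) but not in the first (47.8 to 79.2 and 87.9 to 124).

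Ly6a (Sca-1) was higher in TILs with both NR2F6 loss and PD-L1 blockade than in TILs with neither. The Nr2f6+/+ IgG2b samples held 18467, 13672 and 11414 normalised reads and the Nr2f6-/- IgG2b samples 21377, 18157 and 25957. The Nr2f6+/+ αPD-L1 samples ran from 20014 through a median of 25736 to 32459, and the Nr2f6-/- αPD-L1 samples from 21890 through 29910 to 35629. Both αPD-L1 groups lay above every Nr2f6+/+ IgG2b sample, whereas they overlapped each other and the Nr2f6-/- IgG2b samples.

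The combination against neither was called for Ly6a, with means of 28754 ± 5189 (n = 6) and 14518 ± 3602 (n = 3), a ratio of 1.98. The log2 fold change was 0.99 (SE 0.19, 95% interval 0.60 to 1.39, adjusted p = 0.00920 by limma), at rank 19 by p. Ly6a was 1 of 7 members called, where 0.617% of genes tested were called and 0.158% were called higher, and 2 of 7 (Ly6a and Ly6c2) had an unadjusted p under 0.05, as had 9.04% of genes. Both Ly6a and Ly6c2 did not overlap, 2 of 8 members, as for 6.17% of genes tested. The call was lost in the first set of libraries alone (log2 fold change 0.80, adjusted p = 0.103) and on leaving out Nr2f6+/+ IgG2b replicate 2 (0.97, adjusted p = 0.101) or replicate 3 (0.84, adjusted p = 0.146).

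With PD-L1 blockade in wild type the mean of Ly6a was 1.78 times that with IgG2b, and the test fell just short of the threshold. This comparison shares its IgG2b samples with the preceding one. The log2 fold change was 0.84 (SE 0.19, 95% interval 0.45 to 1.23, adjusted p = 0.0515, rank 32), and no member was called, where 0.242% of genes tested were. At an unadjusted p under 0.05, 2 of 7 members (Ly6a and Ly6d) and 7.24% of genes passed. Ly6a was the only member of 8 without overlap, as for 4.54% of genes tested. DESeq2 on the recovered reads called it (adjusted p = 0.00159) and edgeR did not (adjusted p = 0.103). In Nr2f6-/- TILs, blockade gave Ly6a a log2 fold change of 0.39 (SE 0.19, adjusted p = 0.514), again with no member called, where 0.325% of genes were (1 of 7 members, Ly6a, and 9.7% of genes at an unadjusted p under 0.05), and with all 8 members overlapping (5.12% of genes tested did not overlap).

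Between genotypes, Ly6a had a log2 fold change of 0.60 under IgG2b (SE 0.22, 95% interval 0.15 to 1.05, unadjusted p = 0.0109 by limma, adjusted p = 0.846). All 8 members overlapped there, where 14.2% of genes tested did not. Under αPD-L1 the genotypes differed by 0.15 (SE 0.16, 95% interval -0.17 to 0.47, adjusted p = 0.797). The difference of the blockade effect between genotypes was -0.45 (SE 0.27, 95% interval -1.003 to 0.11, adjusted p = 0.974). Within the αPD-L1 groups the second set of libraries read higher than the first, at 27805 ± 5049 against 23829 ± 3557 in Nr2f6+/+ and 32525 ± 2802 against 24984 ± 4102 in Nr2f6-/- samples (SD, n = 3 each). The second set enters the pooled blockade values without IgG2b samples of its own, whereas the first set holds all 4 groups. Within the first set, the mean log2 value of Ly6a was 14.53 with αPD-L1 and 13.80 with IgG2b in Nr2f6+/+ samples. In Nr2f6-/- samples it was 14.60 and 14.40. The macrophage markers, highest in Nr2f6+/+ IgG2b samples where Ly6a was lowest, went the other way, and the part of the mixture of cells in the Ly6a values was not tested.

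Ly6e, a GPI-anchored antigen of thymocytes and mature T cells, gave no call in any comparison. The Nr2f6+/+ IgG2b samples held 16801, 16744 and 13152 normalised reads and the Nr2f6-/- IgG2b samples 20815, 14549 and 18392. The Nr2f6+/+ αPD-L1 samples ran from 11006 through a median of 15698 to 19464 and the Nr2f6-/- αPD-L1 samples from 11773 through 14836 to 17501. All groups overlapped. Its log2 fold changes lay between -0.27 and 0.20 over the 6 tests, with adjusted p between 0.688 and 0.998 and 95% intervals that reached no further than -0.79 and 0.63. Between genotypes under blockade, where Ly6c2 differed, the value for Ly6e was -0.06 (SE 0.15, 95% interval -0.37 to 0.24).

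**Figure D3:**
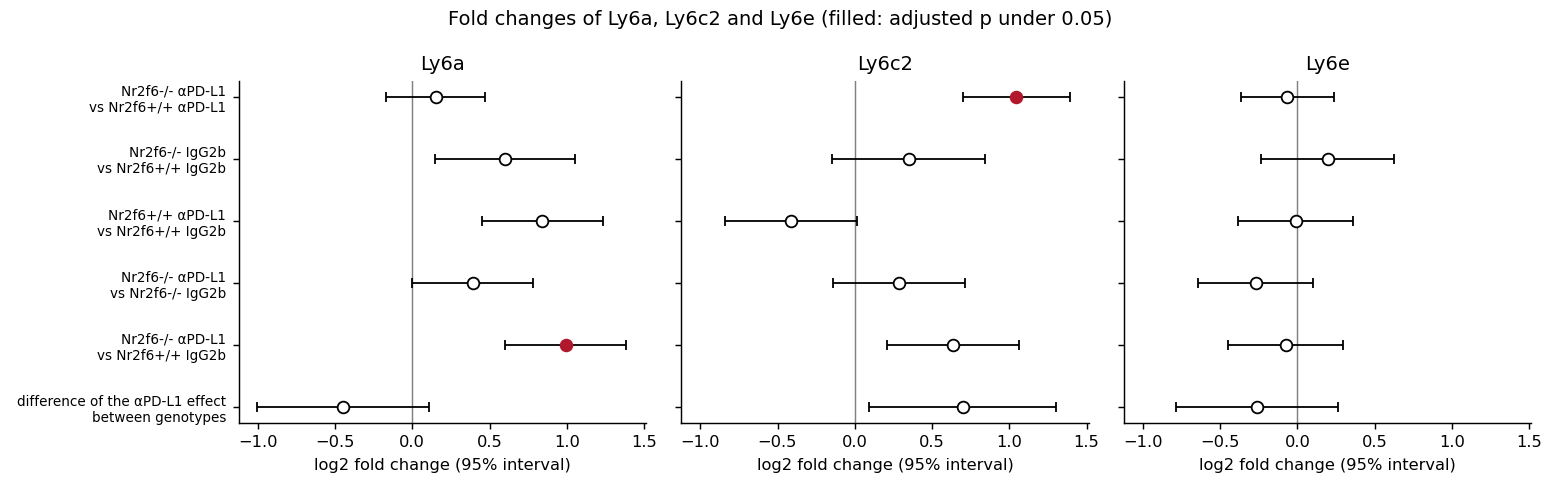
Log2 fold changes on the log2(normalised read count + 1) scale (x axes) of Ly6a, Ly6c2 and Ly6e in 5 comparisons and for the difference of the blockade effect between genotypes, with bars for 95% intervals and filled red points for an adjusted p under 0.05. Filled points are Ly6c2 for Nr2f6-/- against Nr2f6+/+ under αPD-L1 (1.05) and Ly6a for Nr2f6-/- αPD-L1 against Nr2f6+/+ IgG2b (0.99), and Ly6e stays near 0.

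The remaining members were read rarely and unevenly. Ly6c1, a Ly6C gene also known from endothelium, ranged from 0 to 172 normalised reads, with 181 reads at most and group medians between 8.85 and 19.8, while 10 endothelial markers together summed to 112 to 563. Ly6i, a close relative of Ly6a and Ly6c of blood cells, ranged from 0 to 338, and Ly6k, known from testis, from 0 to 420 with 5 samples at 0. Every group of 3 or 6 samples spread widely for each of these, as the plot of the rarely read members shows. Over 24 tests of Ly6c1, Ly6d, Ly6i and Ly6k none was called, the adjusted p lay between 0.534 and 1, and the SE of a log2 fold change was 1.25 to 2.83. Differences of the size found for Ly6c2 were therefore not detectable in these 4 genes.

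Ly6g, the neutrophil antigen, was at or under 3 reads in 14 of 18 samples. Counts above 3 reads came from 1 Nr2f6-/- IgG2b sample (5 reads) and 3 Nr2f6-/- αPD-L1 samples (19 reads at most). As Ly6g shares runs of bases with the much more read Ly6c2 and Ly6a, the origin of these few reads is uncertain. The 11 neutrophil markers summed to 0 to 926 normalised reads per sample. Of those from neutrophil granules, Camp and Lcn2 were at 0 in all samples. Ltf, another, ranged from 0 to 925 and was at 0 in only 3 samples, and Mmp9 ranged from 0 to 183. No test was made for Ly6g.

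**Figure D4:**
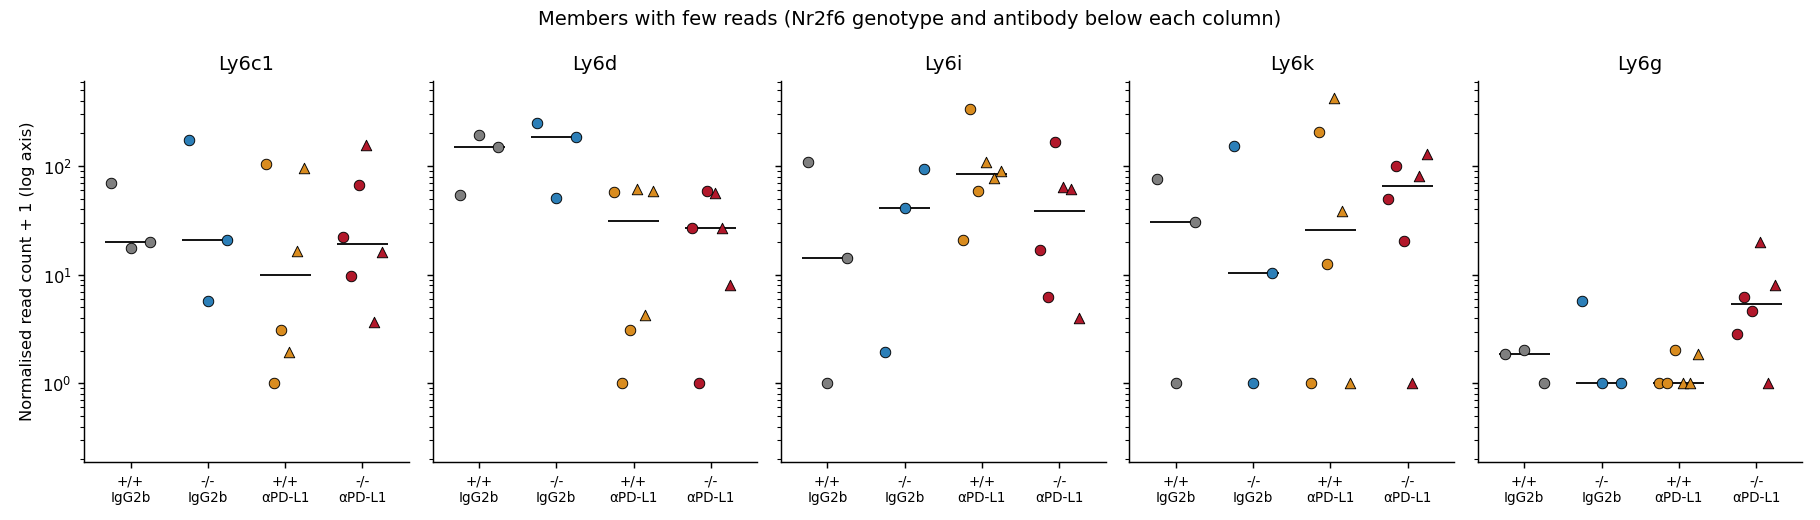
Normalised read counts + 1 (log axis) of Ly6c1, Ly6d, Ly6i, Ly6k and Ly6g in each sample by group, with lines at the group medians and circles and triangles for the first and second set of libraries. Points at 1 are samples without a read. Samples of one group spread over more than 1 power of 10 for most of these genes, and Ly6d is higher in the IgG2b samples (49.9 to 251) than in most αPD-L1 samples (0 to 61.2).

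Ly6d, a marker of early B lineage cells and of squamous epithelium, was the only rarely read member with a shift by treatment at an unadjusted p under 0.05. The Nr2f6+/+ IgG2b samples held 53.6, 194 and 148 normalised reads and the Nr2f6-/- IgG2b samples 251, 49.9 and 183. The Nr2f6+/+ αPD-L1 samples ran from 0 through a median of 30.4 to 61.2 and the Nr2f6-/- αPD-L1 samples from 0 through 26.1 to 58.3. The lowest IgG2b sample of each genotype lay within the αPD-L1 range, so the groups overlapped. With blockade the log2 fold change was -3.29 in Nr2f6+/+ (SE 1.54, unadjusted p = 0.0405 by limma, adjusted p = 0.656) and -3.02 in Nr2f6-/- TILs (SE 1.54, adjusted p = 0.534), and for the combination against neither it was -2.83 (SE 1.54, adjusted p = 0.624). None of these passed.

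The macrophage and monocyte markers and most markers of plasmacytoid dendritic cells were lower with blockade, as was Ly6d. All 14 macrophage and monocyte markers were lower in αPD-L1 than in IgG2b samples in each genotype, with 1 called in Nr2f6+/+ and 2 in Nr2f6-/- TILs, and 5 for the combination against neither. Lyz2, the lysozyme of myeloid cells, had log2 fold changes of -2.83 (SE 0.39, adjusted p = 0.000387) in Nr2f6+/+ and -2.87 (SE 0.39, adjusted p = 0.000318) in Nr2f6-/- TILs. Among the 3 genes closest to Ly6d over the 18 samples were the Fc receptor Fcgr3 (Pearson r = 0.85) and the macrophage mannose receptor Mrc1 (r = 0.80). Of the 7 plasmacytoid dendritic cell markers, 5 were lower with blockade in Nr2f6+/+ and 7 in Nr2f6-/- TILs, with none called. Without Runx2 they summed to 919 to 1554 with IgG2b and 386 to 1058 with αPD-L1 in Nr2f6+/+, and to 1081 to 1909 and 108 to 648 in Nr2f6-/- samples. Siglech, a defining marker, had means of 266, 181, 74.4 and 64.5 in Nr2f6+/+ IgG2b, Nr2f6-/- IgG2b and then, in the same order of genotypes, αPD-L1 samples. In that order of groups, the means were 274, 356, 311 and 85.5 for Tcf4 and 113, 227, 107 and 91.3 for Ccr9. The mean of Tcf4 was thus not lower with blockade in Nr2f6+/+ samples. The defining B cell marker Cd79a was at 0 in every sample, whereas its partner Cd79b ranged from 0 to 192 normalised reads and was at 0 in 5 samples. Cd79b, the only B cell marker tested, had log2 fold changes with blockade of -3.38 in Nr2f6+/+ and 4.42 in Nr2f6-/- TILs. Each had an unadjusted p under 0.05 by limma and neither was called. Of 8 keratinocyte markers 3 were tested, and Perp alone was called, higher with blockade in Nr2f6-/- TILs (2.60, SE 0.57, adjusted p = 0.0327). The part of these cells in the Ly6d values was not tested.

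**Figure D5:**
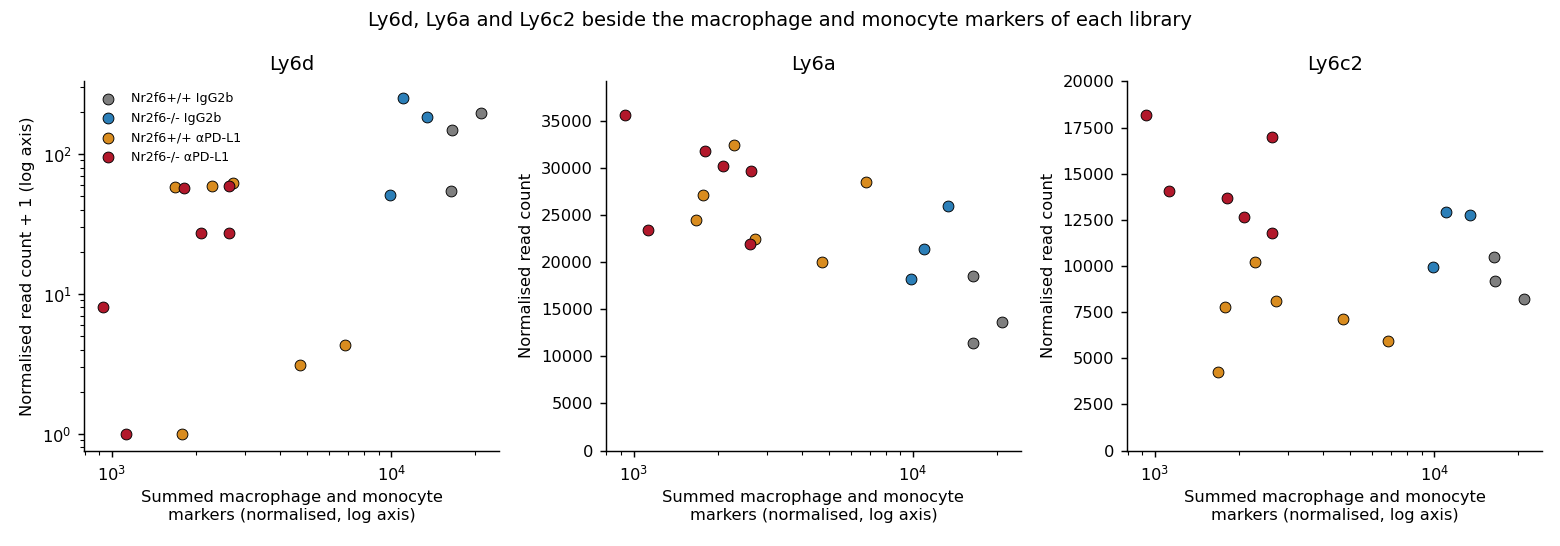
Normalised reads of Ly6d (+ 1, log axis), Ly6a and Ly6c2 (linear axes from 0) against the summed normalised reads of the 14 macrophage and monocyte markers (x axes, log), 1 point per sample, colored by group. IgG2b samples (9860 to 20855 on the x axis) lie to the right, with mostly higher Ly6d and, in Nr2f6+/+, the lowest mean of Ly6a. All αPD-L1 samples lie to the left, and among them Ly6c2 separates the genotypes. Their marker sums also differ, at 1677 to 6815 in Nr2f6+/+ and 929 to 2626 in Nr2f6-/- samples.

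Genes related to the family by structure, anchor or known regulation gave no call, except Tcf7. Of 34 other genes with an LU domain, 30 were in the table and 5 were tested, namely Ly6g5b, Lypd6b, Lypd8, Plaur (the urokinase receptor) and Cd59a (a complement inhibitor), and none was called in any comparison. Ly6g5b had means of 41.7 in Nr2f6+/+ and 129 normalised reads in Nr2f6-/- αPD-L1 samples, with a log2 fold change of 2.64 (SE 1.03, adjusted p = 0.374). The 24 tested genes that make and attach the GPI anchor gave no call in any comparison. Under blockade 7 were higher and 17 lower in Nr2f6-/- than in Nr2f6+/+ TILs, with a median log2 fold change of -0.26 against -0.0049 over all genes tested.

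Interferon-stimulated genes, among which Ly6a and Ly6e are often counted, gave no call. Of 36 tested in each comparison, with blockade in Nr2f6+/+ TILs 17 were higher and 19 lower, with a median of -0.04 against -0.10 over all genes tested. Isg15, a ubiquitin-like protein induced by type I interferon, had a log2 fold change of 0.01 there (SE 0.47, adjusted p = 1). Of 12 genes of naive and central memory T cells, for which Ly6C is a companion marker, Tcf7 was called, lower with blockade in Nr2f6+/+ TILs (-1.45, SE 0.26, adjusted p = 0.00912) and lower for the combination against neither (-1.49, SE 0.26, adjusted p = 0.00618). Between genotypes under blockade, 3 were higher and 9 lower and none was called.

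Across the 18 samples the members did not move as one, and the correlations that follow are descriptions over samples that share groups and sets of libraries. Ly6a and Ly6c2 had r = 0.30 on the log2 scale, Ly6a and Ly6e 0.16, and Ly6c2 and Ly6e 0.12. The gene most like Ly6e was Cd4 (r = 0.83, and 0.85 after removing group means), the coreceptor of helper T cells, followed by Trim21 (0.78) and Pus7 (0.76). Ly6c2 was most like Rab43 (0.81), the transcription factor gene Runx2 (0.80), which is also on the list of plasmacytoid dendritic cell markers, and S100a11 (0.80), a calcium-binding protein. After removing group means these fell to 0.43, 0.57 and 0.71. Ly6a was most like Zfp189 (0.87), Arih2 (0.86) and Serpina3f (0.79), with 0.72, 0.61 and 0.60 after removing group means. The genes closest to Ly6c1 were Sco1, Bri3bp and Adat2 (r from 0.78 to 0.86), to Ly6i Zfp870, Tubd1 and Sntb2 (0.74 to 0.78), to Ly6k Ssu72, Stc1 and Dedd2 (0.71 to 0.74), and to Ly6d, beside Fcgr3 and Mrc1, Hps5 (0.86).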

How the data were processed

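RNA from sorted CD3+ TILs of 18 samples in 4 groups was read with a 3′ end kit. Per the study's methods and processing notes, the authors trimmed reads (Cutadapt, Trimmomatic), discarded those under 22 nucleotides, aligned the rest to mm10 by STAR with a further Bowtie2 step, kept primary alignments and counted them per gene with HTSeq. What they deposited is a signal, the count of a gene in a sample divided by that sample's size factor (normalised read count). Annotation, strand setting and tool versions are not given in the sources used here. In each column 100% of values came out as whole reads within 0.01 of a read, with size factors from 0.823 to 1.22. No columns were left out, and 0 of 153 pairs of columns were identical. The values carry no molecular identifiers, so floors cover counting error only.

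Because these are not raw counts, log2(normalised read count + 1) was fitted with limma (version 3.58.1, R 4.3.3, eBayes with trend) for 11992 genes with a mean of at least 10, in a model of 4 group means over all 18 samples. Tests were two-sided and adjusted over all genes tested by the Benjamini-Hochberg method, with a threshold of 0.05, and all adjusted p-values are limma's unless another tool is named. For rarely read genes, fold changes on this scale can differ from the ratio of means in size and in sign. Ly6k between genotypes under αPD-L1 had a log2 fold change of 0.77 and a ratio of means of 0.556. The fits were tested on simulated data with known changes. Members and gene lists were chosen with earlier results of these data known. The genes named are the 8 members, Nr2f6, called genes of each list or else up to 4 in list order, and the 3 genes with the highest Pearson r to each tested member. Cd8a, Cd8b1, Cd4, Ly6g5b and other genes outside this rule were chosen after their values were seen.

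Alternatives changed 1 choice each. The pseudocount was set to 0.5 or 10, the filter was dropped or raised to 50, and samples were scaled by quantiles or to equal totals. Other fits used the compared groups only, the library set as covariate, either set by itself or the replicate number as block. Recovered reads were tested with edgeR (4.0.16) and DESeq2 (1.42.0), calls were also made at the unadjusted p, and each replicate was left out in turn. Gene positions and transcripts are from GENCODE M21 and promoters from RefSeq (GRCm38.p6), both of the assembly that mm10 names.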

Additional observations from a re-analysis of the deposited data

Results flagged for a closer look

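In 16 groups of 6 samples, 3 held 1 sample far from the others by Dixon's criterion. The criterion flags about 1 in 20 such tests by chance where values are normally distributed. Here the criterion was applied to normalised reads without logs, which are skewed for rarely read genes, so that rate need not hold. Ly6g was at 19.0 normalised reads in Nr2f6-/- αPD-L1 replicate 4, where the next sample had 7.02. Ly6i was at 338 in Nr2f6+/+ αPD-L1 replicate 2, where the next had 109, and at 166 in Nr2f6-/- αPD-L1 replicate 3, where the next had 62.9. Ly6i was called in no comparison, no test was made for Ly6g, and the cause of these values was not tested.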

How the results depend on the processing

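Ly6a and Ly6c2 kept the direction of every fold change under all alternatives (141 values each). For Nr2f6-/- against Nr2f6+/+ under αPD-L1, 1 member (Ly6c2) was called, and 0 with only the groups compared or the second library set alone (fewer samples in both). For the combination against neither, 1 (Ly6a) was called, 0 in the first set alone and 0 to 1 on leaving out replicates. With blockade in Nr2f6+/+, 0 were called, 1 (Ly6a) with a pseudocount of 10 or by DESeq2, and 0 to 1 on leaving out replicates. At an unadjusted p under 0.05 the counts were 2 for blockade in Nr2f6+/+, 2 for the combination, and 1 in each other comparison and for the difference of the blockade effect. Leaving out a replicate gave Ly6c2 between genotypes under αPD-L1 values of 0.90 to 1.16, all called.

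Ly6e changed sign without a call. Between genotypes under αPD-L1 it was 0.20 in the first set alone and -0.16 to 0.0046 on leaving out replicates. With blockade in Nr2f6+/+ it was 0.013 by edgeR, 0.0014 by DESeq2 and -0.13 to 0.086 on leaving out replicates, and its difference of the blockade effect was 0.0068 in the first set alone. Of 492 alternative values of the other fold changes of Ly6c1, Ly6d, Ly6i and Ly6k, 61 changed sign and 0 became calls. The cause was not tested.

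Counts over all genes moved more. Under αPD-L1, 21 genes were called between genotypes, 9 without a filter, 4 with only the groups compared, 34 in the first set, 0 in the second and 184 by DESeq2. Under IgG2b 0 were called, 1 with a pseudocount of 10, 14 without a filter and 88 by DESeq2. With blockade in Nr2f6+/+ there were 29, with 60 at a pseudocount of 10, 19 at a mean of at least 50 or by edgeR, 15 with only the groups compared, 12 with the library set as a covariate or the block, and 94 by DESeq2. In Nr2f6-/- there were 39, with 17 without a filter, 19 with only the groups compared, 8 in the first set and 230 by DESeq2. For the combination there were 74, with 116 at a pseudocount of 10, 41 by edgeR and 177 by DESeq2. On leaving out replicates the counts of these 4 comparisons with calls ran from 9 to 27, 6 to 29, 13 to 41 and 10 to 68. For the difference of the blockade effect 0 were called, 5 without a filter and 76 by DESeq2.

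Replicate numbers showed no pairing over all genes tested, where the deviations of 21 pairs of the same number correlated between -0.03 and 0.04. Rarely read genes spread most and enter these correlations with equal weight, so a weak pairing would not show. With the replicate block, the count of members called stayed at 1 (Ly6c2 1.05, adjusted p = 0.00281; Ly6a for the combination 0.84, adjusted p = 0.0356), and the genotype count under αPD-L1 was 31. The 3 reads of the floor limit Ly6g, and SEs of 1.25 to 2.83 limit the other rarely read members.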
